A study of Solanum tuberosum with 12 samples.

Results

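The potato forms of miR160, miR167 and miR390, 3 plant microRNA (miRNA) families best known for acting on the auxin response, were examined in a list of miRNAs predicted from small RNA reads. The 3 mature sequences were chosen by the read number that the list writes into each identifier, together with a length of 21 nt, so their read numbers are given as a description and were not tested. They occupied 7 of the 324 predicted loci and made up 3 of the 222 distinct mature sequences. miR160 had 2 loci, miR167 had 4 and miR390 had 1. No sequence of another length carried the same read numbers.

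The reads came from 12 libraries of clone ADG573, a potato of the Andigena group propagated in vitro. There were 3 biological replicates each of leaf under long days (LD), leaf under short days (SD), stolon under SD, and swollen stolon, whose labels also give SD. All plants had spent 4 weeks under LD in a glasshouse before they were moved to cabinets at 20 °C, and the labels give sampling after 8 days for every group, while the study's methods give later days for stolons. The list pools the reads of all 12 libraries, so a mature sequence has 1 read number, with no value for a tissue or day length, no replicate error and no known depth per library, and every value below describes this 1 clone.

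Auxin response factors (ARFs) are transcription factors that bind auxin-responsive promoters and switch those genes on or off. In Arabidopsis, miR160 cuts the mRNAs of the repressor class ARF10, ARF16 and ARF17, and miR167 cuts those of the activators ARF6 and ARF8. In the same plant miR390 acts by a longer route: loaded into AGO7, it starts the cutting of the TAS3 transcript into trans-acting small RNAs, and these act on ARF2, ARF3 and ARF4 mRNAs. A plant miRNA is cut by a Dicer-like enzyme out of a hairpin precursor as a duplex of the mature strand and its partner, the star strand.

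The mature sequences are shown 5′ to 3′ as deposited, in DNA letters, with the seed (bases 2 to 8) in capitals. The seed is marked because its pairing with target sites is given below.
miR160: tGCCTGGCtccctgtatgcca
miR167: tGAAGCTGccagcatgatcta
miR390: aAGCTCAGgagggatagcacc
The 3 seeds were different from one another. miR160 and miR167 started with T and miR390 with A, and 57.6% of the 59 distinct 21 nt sequences of the list started with T. G and C made up 61.9% of miR160, 47.6% of miR167 and 57.1% of miR390, against a median of 47.6% over the 21 nt sequences. A G and C content at least as high as that of miR160 was found in 5 of those 59 sequences, miR160 included. In a gapless comparison the 3 sequences differed from each other by 14 to 16 mismatches and overhanging bases. The list sequence most like miR390 differed by 9, the one most like miR160 by 10 and the one most like miR167 by 11. Those were PotatoMir1002393927 with 5 reads, PotatoMir1005658171 (miR482) with 16170 reads and PotatoMir1003074560 with 8 reads, so no length variant or near copy of any of the 3 stood in the list.

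miR167 (PotatoMir1005389543) was read 631 times, and the exact 95% Poisson interval ran from 583 to 682. miR160 (PotatoMir1005487486) was read 572 times (526 to 621). miR390 (PotatoMir1000754176) was read 486 times (444 to 531). The highest of the 3 numbers was 1.30 times the lowest, and this order is fixed by the choice of the sequences. The libraries had no molecular identifiers, so reads may be copies of 1 molecule and these intervals cover counting error only.

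These read numbers gave the 3 sequences ranks 19, 21 and 24 of 222, and ranks 12, 13 and 14 of the 59 sequences of 21 nt, which likewise follows from how they were chosen. The identifiers that chose them were bounded by nearby values: PotatoMir1000102548 lay just above miR167 with 929 reads, PotatoMir1006187661 with 613 reads lay between miR167 and miR160, PotatoMir1005377443 lay just below miR160 with 537 reads, PotatoMir1002426404 just above miR390 with 502 reads, and PotatoMir1003739143 just below miR390 with 473 reads. The median was 67 reads over the 21 nt sequences and 17.5 reads over all sequences. Together the 3 sequences held 1689 of the 954147 reads of the list, or 0.177% (95% Wilson interval 0.169% to 0.186%). This share depends on the most abundant sequence of the list, without which it was 0.793%.

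**Figure D1:**
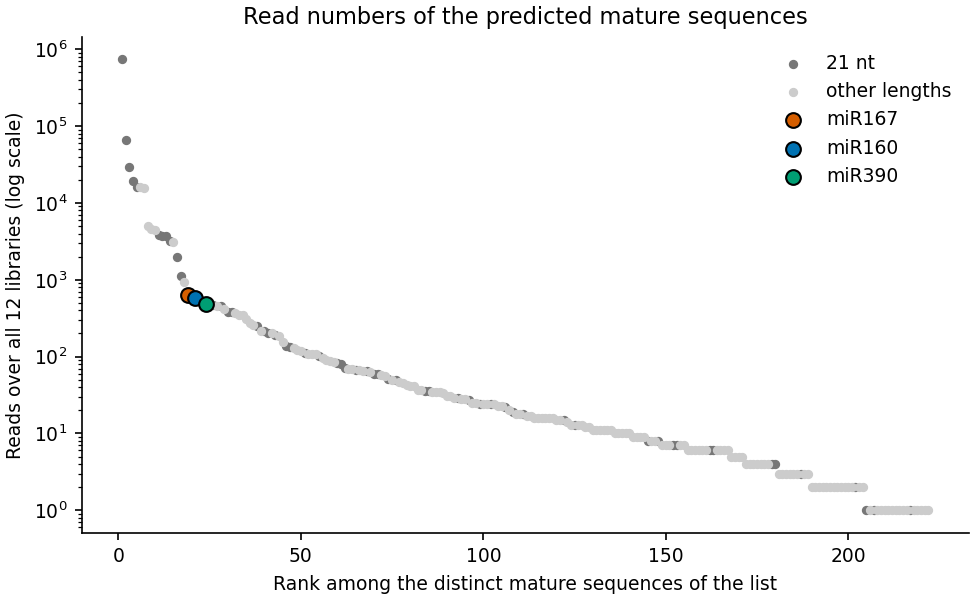
Reads of each distinct mature sequence over all 12 libraries (log scale) against its rank in the list, with 21 nt sequences in dark grey and other lengths in light grey. miR167, miR160 and miR390 are at ranks 19, 21 and 24, with 631, 572 and 486 reads.

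The loci lay on 6 of the 197 superscaffolds of the DM potato genome that carried predicted miRNAs, and positions are 1-based on those superscaffolds. By family and precursor length each locus was matched to 1 gene of RefSeq (assembly SolTub_3.0), 7 of 7, and the gene names are used here as names only. MIR160A was at PGSC0003DMB000000072:504872-504956 on the plus strand and MIR160B at PGSC0003DMB000000235:757257-757338 on the minus strand. MIR167C and MIR167B were both on the plus strand of PGSC0003DMB000000110, at 1246473-1246561 and 1256042-1256115. MIR167A was at PGSC0003DMB000000150:863404-863485 and MIR167D at PGSC0003DMB000000439:216949-217023, both on the minus strand. MIR390 was at PGSC0003DMB000000446:264150-264219 on the minus strand. Whether these loci lie in exons, introns or between genes was not analysed here.

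MIR167C and MIR167B formed the only close pair among the 7, on 1 strand with 9480 nt between them. None of the other 5 loci had a predicted locus within 50000 nt. Over the whole list 87 of 324 loci had such a neighbour, and 9 of the 44 sequences with more than 1 locus had a pair on 1 strand within that distance. Of the 3 sequences, miR160 and miR167 had more than 1 locus, as did 19.8% of the 222 distinct sequences, and 13 sequences had 4 loci or more. A read of a mature sequence with several loci cannot be assigned to one of them, so the 631 reads of miR167 belong to its 4 loci together and the 572 reads of miR160 to its 2 loci together.

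The deposited precursors are shown from the first to the last base, with the mature strand (first) and the star strand (last) in capitals and the loop between them in lower case, because the loci of a family differ only outside the mature strand.
MIR160A: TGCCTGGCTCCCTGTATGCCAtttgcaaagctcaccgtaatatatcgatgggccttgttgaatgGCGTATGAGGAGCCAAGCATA
MIR160B: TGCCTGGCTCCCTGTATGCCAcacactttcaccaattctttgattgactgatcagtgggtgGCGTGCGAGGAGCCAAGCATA
MIR167A: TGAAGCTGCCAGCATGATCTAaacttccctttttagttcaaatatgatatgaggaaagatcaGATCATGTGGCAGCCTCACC
MIR167B: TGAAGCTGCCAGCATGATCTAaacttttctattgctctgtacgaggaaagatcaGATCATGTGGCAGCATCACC
MIR167C: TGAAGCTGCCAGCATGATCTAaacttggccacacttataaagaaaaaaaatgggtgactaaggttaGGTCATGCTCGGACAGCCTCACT
MIR167D: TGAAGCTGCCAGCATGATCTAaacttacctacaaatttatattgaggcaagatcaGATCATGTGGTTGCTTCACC
MIR390: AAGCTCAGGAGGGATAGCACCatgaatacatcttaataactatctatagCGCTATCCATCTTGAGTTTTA
In all 7 precursors the mature strand was the 5′ arm. The 5′ arm held the mature strand at 51.5% of all loci and at 40.0% of the 100 loci with 21 nt mature sequences. Because loci of a family share the mature sequence, the 7 are not independent cases. The precursors were 70 to 89 nt long (median 82), inside the range of the 21 nt loci (59 to 177 nt, median 79.5), and the stretch between the strands was 28 to 45 nt (median 40, against 37.5 over the 21 nt loci). MIR390 had the shortest precursor and loop of the 7 and MIR167C the longest.

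The 5′ end of the star strand was cut from the fold so that the mature 3′ end overhung by 2 nt. The 3′ end of the star was taken as the end of the deposited precursor. The result was the star sequence listed by the study at 7 of 7 loci, where only the 5′ end came from the fold. The study also folded with RNAfold and required a 2 nt overhang, so a match is largely built in. The share over all loci was not computed. Both miR160 stars and the miR390 star had 21 nt, like the mature strand. The stars of MIR167A, MIR167B and MIR167D had 20 nt, and that of MIR167C had 23 nt. A star 1 nt shorter than the mature strand occurred at 3 of the 7 loci and at 4.30% of the other 93 loci with 21 nt mature sequences. These 3 loci share the miR167 mature sequence, so they are not 3 independent cases. A star longer by 2 nt occurred at 2 of the 100 loci, MIR167C and another.

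**Figure D2:**
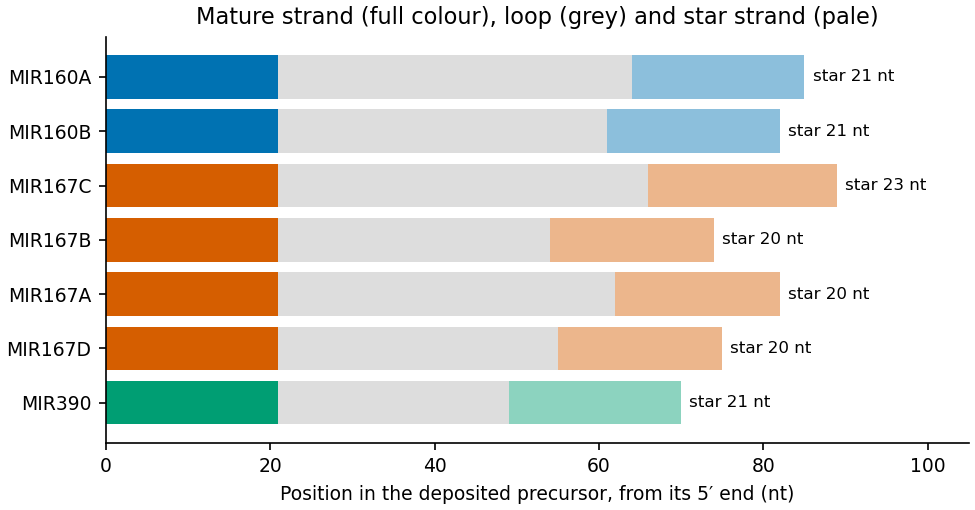
Layout of the 7 deposited precursors from the 5′ end (nt), with the mature strand in full colour, the loop in grey and the star strand pale. The mature strand lies at the 5′ end of every precursor, and the star length is 20 or 23 nt in miR167 and 21 nt in miR160 and miR390.

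Within families, the loops and stars differed to different degrees. The miR160 precursors shared their mature strand and were 61.2% identical outside it. Their stars differed at 2 of 21 bases, written with the MIR160A base first and counted from the 5′ end of the star, namely A5G and T6C. All 4 miR167 precursors also shared the 5 bases after the mature strand, so their first 26 nt were the same. Outside the mature strand MIR167A, MIR167B and MIR167D were 74.1% to 77.0% identical to each other, and MIR167C was 54.4% to 64.3% identical to them, lowest with MIR167B, its neighbour on the superscaffold. The other 128 pairs of 21 nt loci with a shared mature sequence and arm ranged from 51.2% to 100% (median 81.5%). The MIR167B and MIR167A stars differed only by A15C (MIR167B base first), and the MIR167B and MIR167D stars by C11T, A12T and A15T.

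In the fold of minimum free energy the duplexes were open at different bases. In MIR160A and MIR160B bases 4 and 12 of the mature strand were unpaired. The substitutions between their stars moved 1 G:U pair: in MIR160A mature base 14 was in a G:U pair and base 15 in an A:U pair, and in MIR160B base 14 was in a G:C pair and base 15 in a G:U pair. In MIR167A and MIR167B mature bases 4 and 12 were unpaired, base 4 opposite star base 15 and base 12 as a bulge of 1 nt. In MIR167D base 4 was paired, base 7 was open opposite star base 12, base 8 was in a G:U pair, and the bulge at base 12 remained. In MIR167C only base 4 of the mature strand was open, and the bulges were on the other strand, at star bases 10 and 13. MIR390 had open bases 11 and 19, opposite star bases 9 and 1.

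Base 4 was open at 5 of the 7 loci, in all of miR160 and in miR167A, B and C, and base 12 at 5 of the 7, in all of miR160 and in miR167A, B and D. Among the other 93 loci with 21 nt mature sequences, base 4 was open at 7.53% and base 12 at 12.9%. Loci of 1 family share the mature sequence, so these 5 loci are not 5 independent cases. Over the ensemble of folds, base 4 was unpaired with a probability of 0.998 to 0.999 at the 5 loci. Base 7 of MIR167D and bases 11 and 19 of MIR390 were also unpaired with a probability of at least 0.998. The bulge in MIR167A, MIR167B and MIR167D was less fixed: base 12 was unpaired with a probability of 0.658 and base 11 with 0.349, since the bulge can form at either. In miR160 base 12 was unpaired with a probability of 0.918 (MIR160A) and 0.963 (MIR160B).

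**Figure D3:**
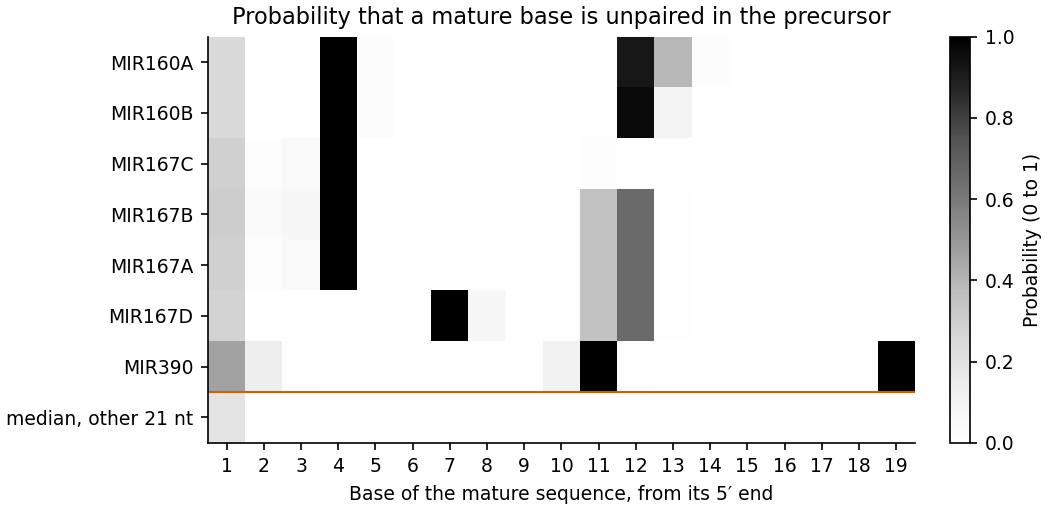
Probability, from 0 (white) to 1 (black), that each of the first 19 mature bases is unpaired in the precursor, for the 7 loci and as the median of the other 21 nt loci. Base 4 is near 1 in 5 loci, base 7 is near 1 in MIR167D, the bulge of MIR167A, MIR167B and MIR167D is spread over bases 11 (0.349) and 12 (0.658), and MIR390 is open at bases 11 and 19.

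The criteria for a plant miRNA duplex used by the study (strands on opposite arms, no more than 4 mismatches, and a single asymmetric bulge allowed, of up to 2 nt) were met by 6 of the 7 loci, against 82.1% of all loci. The list had been filtered by the authors with such criteria, so this share describes the fold used here. The exception was MIR167C, with 2 bulges of 1 nt each. The other 6 loci had 2 unpaired mature bases and at most 1 bulge. Where G:U pairs were counted as mismatches, 4 of the 7 loci met the criteria, against 53.7% of all loci, since MIR160A and MIR160B each reached 5.

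At the ends of the duplex, the first 4 bases of the mature strand were in fewer G:C pairs than the first 4 of the star strand at 5 of the 7 loci, against 46.7% of the 317 loci with a star of 18 to 26 nt. The 5 were the miR167 loci and MIR390, each with 1 G:C pair at the mature end and 2 at the star end. Both miR160 loci had 2 at each end. This count depended on the number of bases: over the first 3 bases it was 1 of 7, against 39.7% of the 317 loci. Over the first 5 bases it was 1 of 7, against 47.9%. In both cases the other 6 loci had equal numbers of G:C pairs at the 2 ends.

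The precursors spanned a wide range of fold stability. The minimum free energy at 37 °C was -43.70 kcal/mol for MIR160A and -42.70 for MIR160B, -38.30 for MIR167C, -33.40 for MIR167B, -32.00 for MIR167A, -29.80 for MIR167D and -23.00 for MIR390. Per base, the miR160 precursors were lowest, at -0.521 (MIR160B) and -0.514 kcal/mol/nt (MIR160A), and 21.6% and 23.5% of all loci were at or below them. The miR167 precursors lay between -0.451 (MIR167B) and -0.390 (MIR167A), around the median of all loci (-0.430). MIR390 was highest, at -0.329, and 79.9% of all loci were at or below it. Energies have no replicate error, and the order among the miR167 loci is that of single computed values. The duplexes held 9 and 10 G:C pairs in miR160, 8 to 10 in miR167 and 7 in MIR390.

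**Figure D4:**
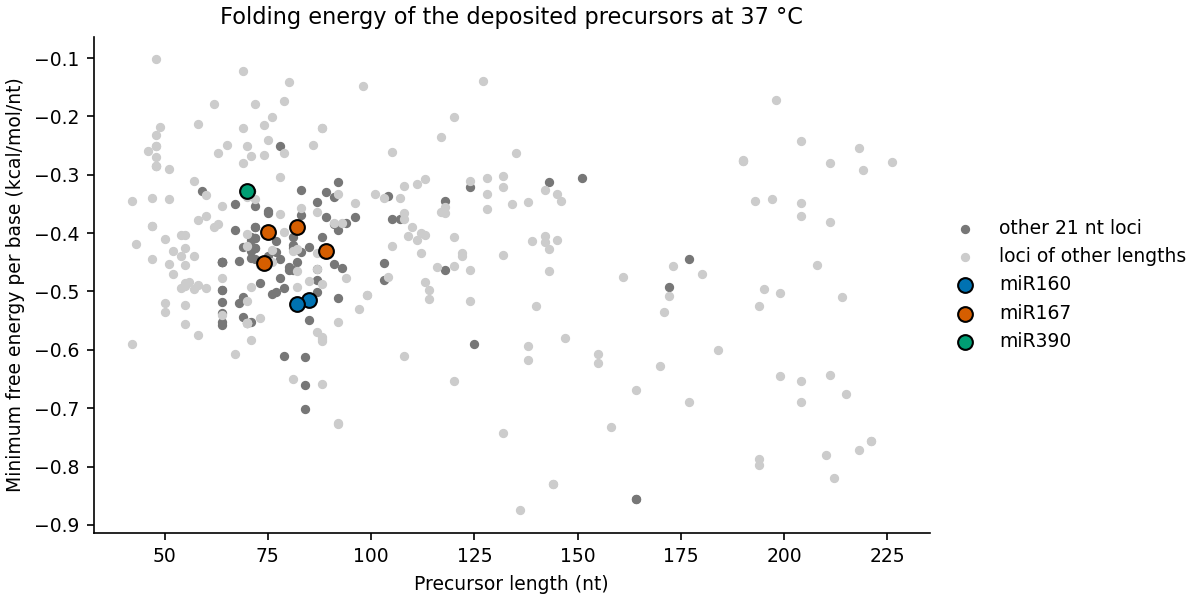
Minimum free energy per base at 37 °C (kcal/mol/nt) against precursor length (nt), with 21 nt loci in dark grey and loci of other lengths in light grey. The miR160 precursors are at -0.514 and -0.521, the miR167 precursors between -0.451 and -0.390, and MIR390 at -0.329.

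The study's stricter target prediction lists 12 transcripts for the 3 miRNAs, with 10 distinct sites: 6 transcripts for miR160, 2 for miR167 and 4 for miR390. Here each site was paired again with the deposited mature sequence, and a score was given of 1 per mismatch and 0.5 per G:U pair over the first 17 bases of the miRNA. These are predicted sites, and no cleavage was measured. An annotation with the word auxin belonged to 3 of the 12 transcripts, all of them ARFs and all of them targets listed for miR160, and to 0.691% of the 1158 pairs of a sequence and a transcript in the prediction. None of the 2 transcripts of miR167 or the 4 of miR390 had one. For miR390 the route above, in which the small RNAs cut from TAS3 act on the ARF mRNAs, was not tested here. For miR167 the auxin role above is known from Arabidopsis and was not seen among the sites listed here. The study listed only sites with an expectation score, its measure of pairing, of at most 2. Less well paired sites are therefore missing from the list.

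The miR160 sites are shown 5′ to 3′ as RNA, since they hold the closest matches; capitals mark bases that form a G:U pair or a mismatch with miR160.
PGSC0003DMT400020874 (Auxin response factor): ggcauacagggagccaggca
PGSC0003DMT400062489 (Auxin response factor 16): ggcauacagggagccaggca
PGSC0003DMT400045323 (Auxin response factor ARF16): uggcauGcagggagccaggca
PGSC0003DMT400055614 (gene of unknown function): ggcauacagggagccagAca
PGSC0003DMT400056935 (TOM20, a mitochondrial import receptor subunit): UauacagggCgcUaggca
PGSC0003DMT400013583 (conserved gene of unknown function): gGauaUagggagUUaggUa
The first and second ARF transcripts carried the same site and paired with miR160 without a mispair (score 0). Such perfect pairing was found for 2 of the 12 sites of the 3 miRNAs and for 4.61% of the 1149 gapless sites of the prediction. The third ARF site scored 0.5, for a G:U pair at miRNA base 15. It differed from the site of PGSC0003DMT400020874 by 1 of 20 bases. The site in the gene of unknown function also differed from it by 1 of 20 bases, a mismatch at miRNA base 3 in the seed (score 1). The last pair of sites was more distant, at 3 of 18 and 5 of 19 bases. The TOM20 site scored 1.5, with a mismatch at base 9 next to the centre, and the remaining site scored 2, with 4 G:U pairs and a further mismatch at base 18, beyond the scored bases. A plant target mRNA is usually cut opposite bases 10 and 11 of the miRNA. Both bases were in Watson-Crick pairs in 6 of 6 miR160 sites, and the whole seed was in 3 of 6. Over the 12 sites of the 3 miRNAs these counts were 11 and 6. The shares over all sites of the prediction were not computed, and the prediction kept only well paired sites, so these counts are a description.

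The sites of miR167 and miR390 are shown for comparison, with the same use of capitals.
PGSC0003DMT400065043 (miR167, multidrug resistance pump): uagGCcUugcuggcagcuuca
PGSC0003DMT400080522 (miR167, conserved gene of unknown function): gauUCugcuggUagcuuca
PGSC0003DMT400020698 (miR390, protein phosphatase): gugcuauUccuccugaUcuu
PGSC0003DMT400034044 (miR390, gene of unknown function): ggugcuaucUUAccugagcuu
PGSC0003DMT400045887 (miR390, leucine-rich repeat receptor protein kinase EXS): ggugUAaucccuUcugagcuu
Both miR167 sites scored 2. Their mismatches lay in the 3′ part of the miRNA, at bases 15 and 17 in the multidrug resistance pump and at base 15 in the other transcript, which also had a G:U pair at base 8 of the seed. For miR390, PGSC0003DMT400020698 and PGSC0003DMT400020699 carried the same site with a mismatch at base 4 (score 1.5). The site in PGSC0003DMT400034044 scored 2 and was the only one of the 12 with a mispair at bases 10 and 11, a mismatch at 10 and a G:U pair at 11. The site in the receptor kinase, a membrane protein class that senses signals outside the cell, scored 2 with a mismatch at base 16. The median score was 0.75 for miR160, 2 for miR167 and 1.75 for miR390, against 1.5 over the gapless sites of the prediction. The study's cut-off applied to all of these sites, so poorly paired sites are missing from each median. A score of 1 or less was reached by 4 of the 12 sites, all of miR160, and by 41.7% of the 1149 gapless sites.

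**Figure D5:**
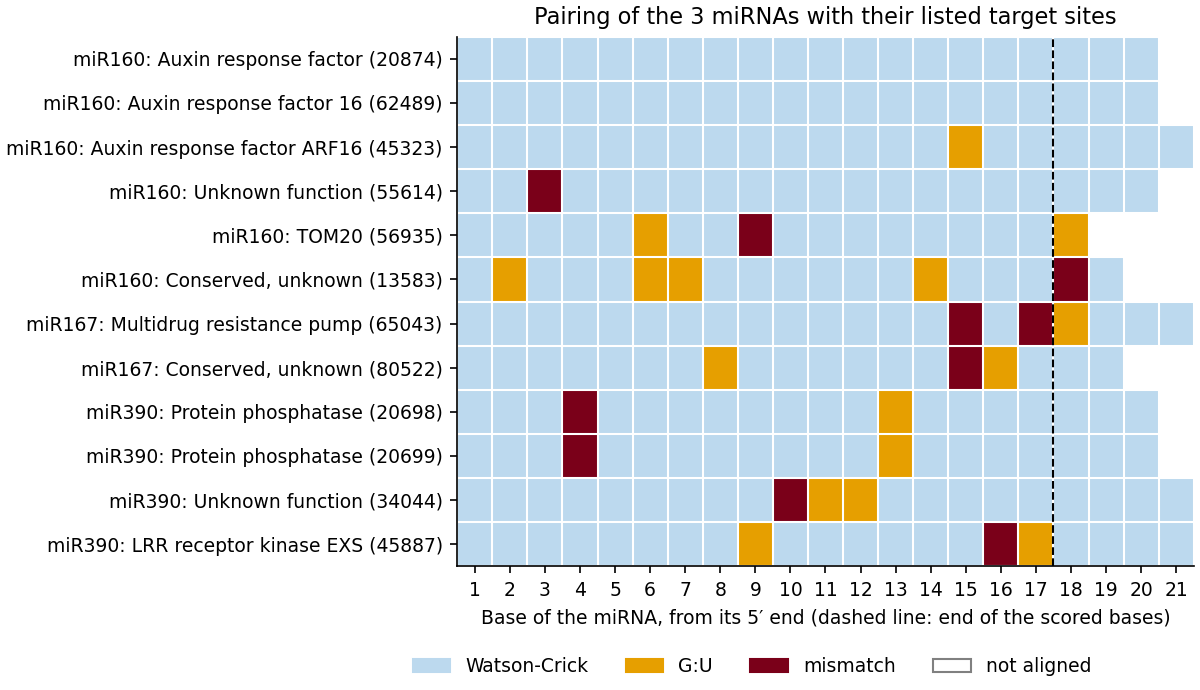
Pairing of each miRNA base (1 to 21 from the 5′ end) with the 12 listed target transcripts, as Watson-Crick, G:U or mismatch, with the last 5 digits of each transcript identifier and a dashed line after the scored bases. The top 2 ARF sites of miR160 have no mispair, the third has a single G:U pair at base 15, and the miR167 and miR390 sites score 1.5 or 2.

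Auxin-annotated transcripts of the stricter prediction numbered 8 in all, from 3 sequences of the list, and miR160 accounted for 3 of them. PotatoMir1001926666 had 4. PGSC0003DMT400036765 and PGSC0003DMT400036770, both annotated as Auxin response factor 2, had a site that scored 1.5, with a mismatch at base 10. With a further mismatch at base 19, that site scored 2.5 over its whole length. PGSC0003DMT400004947 and PGSC0003DMT400004948, annotated as Auxin-induced protein 5NG4, had a site that also scored 1.5 and was in Watson-Crick pairs at bases 10 and 11. PotatoMir1004630472 had 1, PGSC0003DMT400012906, annotated as an auxin-induced SAUR protein of a family of early auxin-response genes. Its site scored 2, with a mismatch at base 10. The 3 miR160 sites, at 0, 0 and 0.5, were the best paired of the 8.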

How the data were processed

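Small RNA libraries of leaf, stolon and swollen stolon were sequenced. The authors trimmed reads with Cutadapt (version 1.1 in the submitters' processing notes), removed structural RNAs with cross_match, filtered by length, aligned sequences without mismatch to the DM superscaffolds with Bowtie, folded the surrounding windows with RNAfold, predicted miRNAs with miRDeep-P over all libraries together, and removed redundant predictions. The other versions were not given in the sources used here. The deposited list holds identifiers, positions and sequences, and its only number is a raw read count that the authors wrote into each identifier. No column belongs to a single sample, so groups were not compared and no statistical test was made. Removing sequences under 5 reads, as stated by the study, had not been applied to the list and was tried as an alternative.

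Here the deposited precursors were refolded at 37 °C by RNAfold of ViennaRNA 2.7.2. The star strand was cut on the loop side to leave a 3′ overhang of 2 nt there, from the nearest paired base within 5 nt where needed. Its other end was the end of the deposited precursor. Unpaired probabilities came from the partition function. Precursor identity was taken from global alignments (match 1, mismatch -1, gap opening -2, extension -1). Target site sequences and transcript annotations came from the study's supplementary tables, and no value of those tables was used. Intervals are 95% Poisson or Wilson intervals. Python 3.11.15, NumPy 2.4.6, SciPy 1.17.1, Biopython 1.88 and Matplotlib 3.10.9 were used, and the procedures were tested on simulated data. Alternatives were a fold at 20 °C, G:U pairs counted as mismatches, other denominators of reads, 3 or 5 end bases, other site scores and the relaxed prediction.

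Named were all 3 sequences and their 7 loci, every site listed for them in the stricter prediction, every transcript there annotated with auxin, the most alike sequence of the list, and every locus within 50000 nt. The sequences next to them in read number are named as well. Members and lists were chosen with earlier results of these data known.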

Additional observations from a re-analysis of the deposited data

How the results depend on the processing

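Of 15 alternatives, 10 kept a count within 1.5 times its value or a share within its interval. The share of the list's reads in the 3 sequences, 0.177%, was 0.166% with reads summed over loci, 0.793% without the most abundant sequence and 0.189% among 21 nt sequences. Summing over loci changed both the reads of the 3 sequences and the total, and the other settings changed the total only. Fewer G:C pairs at the mature end, found at 5 of 7 loci over 4 bases, were found at 1 locus over 3 bases and at 1 locus over 5 bases. That is below the share of all loci (39.7% and 47.9%), where the count over 4 bases was above it (46.7%). Over 3 and over 5 bases the other 6 loci had equal numbers at the 2 ends. The duplex criteria were met by 6 loci at either temperature and by 4 where G:U pairs were counted as mismatches. Folding at 20 °C or ranking among 21 nt loci kept the median energy per base of the 7 loci near the middle of the list. The relaxed prediction and the ensemble of folds were chosen after seeing the data. No paired analysis was possible because the list holds no values of single libraries. Depth per library is unknown, and read numbers of single tissues or day lengths were not analysed here.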

Other observations

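The relaxed target prediction of the study, of which a part was used here, lists 14 transcripts for miR160 and 7 for miR167. Auxin was in the annotation of 3 of the 14, the same number as in the stricter prediction, and of 0 of the 7. The highest score was 2.5 for miR160, and the miR167 sites scored 2 to 3. The relaxed prediction kept only sites with an expectation score of at most 3, so these upper values are limited by that cut-off. miR390 was not in the part used, so its relaxed sites were not analysed here.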
